A study of Drosophila melanogaster with 9 samples.

Results

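Most mitochondrial proteins are made in the cytosol and enter the organelle through a pore in each of its membranes. In the outer membrane the pore is Tom40, and Tom20 is a receptor that binds incoming precursors. In the inner membrane the TIM23 complex carries them further, with Tim17 and Tim23 in its channel and Tim50 as the receptor that hands precursors to it. *Drosophila* carries further copies of several of these genes, and *tomboy40*, *tomboy20*, *ttm2* and *ttm3* are relatives of *Tom40*, *Tom20* and *ttm50* (*tiny tim 50*, the gene for Tim50). Spermatids of the fly fuse their mitochondria and draw them out along the growing sperm tail, after the meiotic divisions.

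The 10 genes described here are 4 general forms, *Tom40*, *Tom20*, *Tim17b* and *ttm50*, and 6 paralogs, *tomboy40*, *tomboy20*, *Tim17a1*, *Tim17a2*, *ttm2* and *ttm3*, of 11981 genes with a probe set of a single gene symbol. They were chosen by name, with earlier results of these data known. Each was read by the brightest probe set that carries its symbol alone. Each had 1 such probe set, so no second probe set bears on any of them. All 10 were tested, with no filter on low signals.

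Total RNA of hand-dissected testes was hybridised to Affymetrix *Drosophila* arrays, 3 for each genotype. *Nxt1* testes came from males with *Nxt1[z2-0488]* over *Nxt1[DG05102]* in a *w* background, cultured at 25°C. The first allele is an amino acid substitution with partial loss of function and the second a P-element insertion expected to be null. *aly* testes came from males homozygous for *aly[5]*, marked with *red[1]* and *e[1]* and cultured at 27°C. Control males had an RNAi construct against *tin* under *bamGal4VP16*, a driver active in the male germline, in a *w* background at 29°C, and their testes are labelled normal. All males were up to 1 day old, and testes were frozen and pooled until there was enough RNA. Nxt1 is an mRNA export factor and Aly a subunit of tMAC, the transcription complex of primary spermatocytes. Testes of both mutants hold stages only up to mature primary spermatocytes, so fewer cells of a stage and less RNA per cell cannot be told apart in any value below. Genotype cannot be told apart from culture temperature, nor, since *Nxt1* arrays were set against existing ones, from array batch if they were run separately. Nothing says that the 3 arrays of a genotype came from separate cultures, so p-values measure the spread between arrays, which may be technical.

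Values are RMA signals on a linear scale, with a median per array of 98.4 to 109 and a lower quartile of 35.8 to 41.2 over 18769 probe sets. The number of arrays limits the precision. The *aly* gene read 53.7 ± 3.45 in *aly* and 99.3 ± 6.62 in control testes (SD, n = 3 each), or -0.89 on the log2 scale (limma, adjusted p = 5.10e-06). The *Nxt1* gene read 869 ± 66.7 in *Nxt1*, 922 ± 195 in *aly* and 348 ± 3.63 in control testes (SD, n = 3 each). Its higher signal was thus shared by both mutants, and it does not check a substitution allele. Of 13 spermatocyte and testis markers, 13 lay above a signal of 128 on every *Nxt1* array, 8 on every *aly* array and 12 on every control array, where *aly* itself lay under it. Their log2 differences between *Nxt1* and control testes went both ways, between -3.49 for *fzo* and 2.53 for *Rbp4*, so the count does not measure spermatocyte content. Summed signals of 12 of 13 accessory gland markers were 46908 to 145016 on *Nxt1*, 39186 to 94943 on *aly* and 1281 to 32420 on control arrays, although these glands and the ejaculatory ducts were removed. Sums over 3 of 8 heat shock genes were 33303 to 34928 on *Nxt1*, 40669 to 42860 on *aly* and 15699 to 17097 on control arrays, and those of 5 fat body markers 2512 to 3290 on *Nxt1*, 7903 to 10341 on *aly* and 927 to 1660 on control arrays. Of these 5, *Col4a1* alone passed as higher in *Nxt1* than in control testes, while *Fbp1*, *Fbp2*, *Lsp2* and *Col4a1* passed in *aly* testes. Sums over 4 of 6 ejaculatory duct and bulb markers were 11436 to 40700 on *Nxt1*, 13976 to 39389 on *aly* and 157 to 7614 on control arrays, and those of 4 of 5 cyst and hub cell markers 990 to 1068 on *Nxt1*, 876 to 1045 on *aly* and 656 to 692 on control arrays. Sums over 3 of 4 early germline markers were 3378 to 3614 on *Nxt1*, 3655 to 3865 on *aly* and 2179 to 2573 on control arrays. Of the cyst and hub cell markers *eya* carried the rise, at 862 in *Nxt1*, 799 in *aly* and 534 in control testes. In *Nxt1* against control testes *tj* passed as lower (-0.38, limma, adjusted p = 0.0199) and *upd1* as higher (0.34, adjusted p = 0.0237). Both read low, *tj* at 45.3 in *Nxt1* and 59.3 in control and *upd1* at 51.3 in *Nxt1* and 40.5 in control testes. *bam* passed as higher in both mutants, by 1.74 in *Nxt1* and 2.57 in *aly* testes, and *bgcn* by 0.43 in *Nxt1* and 0.34 in *aly* testes. *vas* passed as lower in *Nxt1* testes (-0.49, limma, adjusted p = 0.0138), at 47.9 against 66.9 in control testes. All marker values are on the deposited scale. The rises of *eya*, *upd1* and *bgcn* are each smaller than the amounts that the centrings described below subtract. The part of these marker differences in the results below was not tested. The calls of all 10 genes against control were the same without each of the 9 arrays in turn.

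In *Nxt1* testes 5 of the 6 paralogs fell against control and all 4 general forms rose on the deposited scale. Of these 4, *Tom20* and *Tim17b* turned to lower values when arrays were centred on ribosomal protein genes or on *CG3927*. The latter is a spermatocyte gene that the study used as its reference in quantitative RT-PCR. Of all probe sets, 24.2% passed as lower and 34.1% as higher. In *aly* testes the same 5 paralogs fell, against a background of 20.0% of probe sets lower. There 5 of the 10 genes rose, against 44.0% higher, namely the general forms and *Tim17a2*. All 5 turned to lower values under both centrings. The counts that rose, 4 of 10 in *Nxt1* and 5 of 10 in *aly* testes, are near the shares of all probe sets. Falls of 16 fold or more were seen for 4 of the 10 in *Nxt1* testes, where 2.59% of probe sets fell this far, and for 5 in *aly* testes, where 5.70% did. The *Nxt1* arrays did not overlap the control arrays for 9 of the 10 genes, against 69.2% of all probe sets, and the *aly* arrays for 10 of 10, against 66.8%. The median log2 difference of the paralogs was -5.21 in *Nxt1* and -6.52 in *aly* testes. That of the general forms was 0.85 in *Nxt1* and 0.81 in *aly* testes, and that of all probe sets -0.01 in *Nxt1* and 0.21 in *aly* testes.

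**Figure D1:**
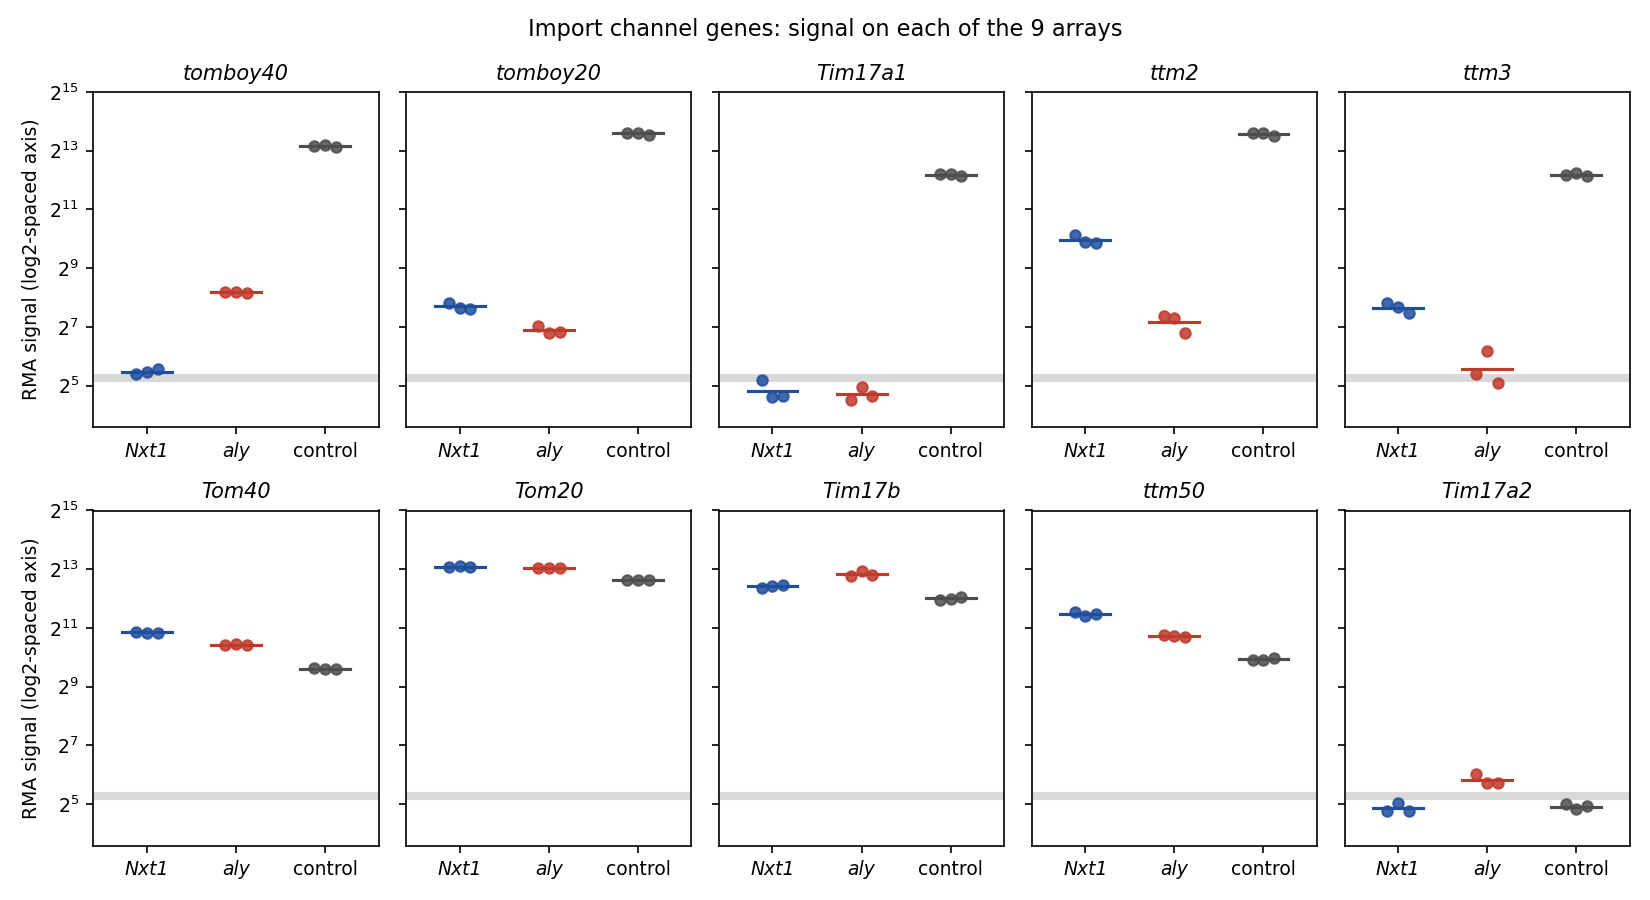
RMA signal of the 10 genes on a log2-spaced axis, with *Nxt1*, *aly* and control arrays from left to right in each panel. Points are single arrays, bars the mean of the 3 log2 values, and the grey band the range of the arrays' lower quartiles, 35.8 to 41.2. In the upper row 5 paralogs stand high on the control arrays alone, in the lower row the general forms lie at least as high on the mutant arrays as on the control arrays on this scale, an order that centring turns for all 4 in *aly* and for *Tom20* and *Tim17b* in *Nxt1* testes, and *Tim17a2* stays near or under 64.7 on every array.

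Scaling decides the direction of the smaller changes. Centring on 47 ribosomal protein probe sets subtracted 1.13 from every log2 difference of *Nxt1* against control and 1.22 from those of *aly* against control, and centring on *CG3927* subtracted 0.77 for *Nxt1* and 1.14 for *aly*. Lower calls made up 41.5% of calls between *Nxt1* and control testes as deposited, 87.4% with ribosomal centring and 80.4% with *CG3927* centring. Between *aly* and control testes they made up 31.3% as deposited, 85.4% with ribosomal and 83.8% with *CG3927* centring, and between *Nxt1* and *aly* testes 65.1% as deposited, 55.1% with ribosomal and 26.5% with *CG3927* centring. The falls of the 5 paralogs against control are each larger than 3 on the log2 scale and passed under both centrings.

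*tomboy40*, the relative of the outer membrane pore, had a signal of 41.7, 44.1 and 46.9 in *Nxt1* testes, 295, 294 and 282 in *aly* testes and 9077, 9426 and 8904 in control testes. The 3 groups did not overlap, with *Nxt1* lowest and control highest. The log2 difference was -7.69 (standard error 0.07, limma, adjusted p = 1.83e-11) between *Nxt1* and control testes and -4.98 (standard error 0.07, adjusted p = 2.03e-11) between *aly* and control testes. Between the mutants it was -2.72 (standard error 0.07, adjusted p = 1.73e-09), which is 6.57 fold lower in *Nxt1* than in *aly* testes. Its *Nxt1* signals lie just above the lower quartile of all probe sets. In *aly* testes 1069 probe sets read at least 16 fold lower than in control testes. Of these, 828 passed as higher and 86 as lower in *Nxt1* testes when the mutants were compared. The 1069 were chosen by low signals on the same *aly* arrays, which tilts that comparison towards higher values in *Nxt1* testes, so no conclusion is drawn from the split. *tomboy40* had the lowest log2 difference of the 1069 between *Nxt1* and *aly* testes. This place was looked up after its values were seen.

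*Tom40*, the pore of the general complex, read 1875, 1814 and 1830 in *Nxt1*, 1379, 1393 and 1367 in *aly* and 794, 770 and 784 in control testes. Its order is the reverse of that of *tomboy40* on this scale, with no overlap between groups. The log2 difference was 1.23 (standard error 0.06, adjusted p = 6.45e-08) in *Nxt1* testes, and 0.10 (adjusted p = 0.206) after ribosomal centring. In *aly* testes it was 0.82 (standard error 0.06, adjusted p = 1.19e-06) as deposited, and it turned to -0.40 with ribosomal and -0.32 with *CG3927* centring.

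*tomboy20*, the relative of the outer membrane receptor, had signals of 225, 201 and 197 in *Nxt1*, 130, 112 and 115 in *aly* and 12412, 12563 and 11945 in control testes. It fell in both mutants, with a log2 difference from control of -5.89 in *Nxt1* testes (standard error 0.09, adjusted p = 5.02e-11) and -6.70 in *aly* testes (standard error 0.09, adjusted p = 1.86e-11). Its order in the mutants is the opposite of that of *tomboy40*, since *Nxt1* arrays lay above *aly* arrays by 0.81 on the log2 scale (standard error 0.09, adjusted p = 3.02e-05).

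*Tom20*, the receptor itself, read 8655, 8882 and 8669 in *Nxt1*, 8437, 8484 and 8489 in *aly* and 6336, 6384 and 6322 in control testes. Its log2 means spread less across the genotypes than those of the other 9 genes, with log2 differences of 0.46 in *Nxt1* testes (adjusted p = 0.000111) and 0.42 in *aly* testes (adjusted p = 0.000203), which turned to -0.67 in *Nxt1* and -0.80 in *aly* testes with ribosomal and with *CG3927* centring to -0.31 in *Nxt1* and -0.72 in *aly* testes. The mutants differed by 0.04 (95% interval -0.10 to 0.19, adjusted p = 0.56), although every *Nxt1* array lay above every *aly* array.

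*Tim17a1*, a relative of the inner membrane channel subunit, had signals of 36.3, 24.3 and 24.8 in *Nxt1*, 22.9, 30.7 and 24.8 in *aly* and 4699, 4708 and 4556 in control testes. All mutant arrays lie at or under the lower quartile of all probe sets, and control arrays far above them. It fell, with a log2 difference of -7.38 in *Nxt1* (standard error 0.16, adjusted p = 2.39e-10) and -7.49 in *aly* testes (standard error 0.16, adjusted p = 9.81e-11). The mutants overlapped and their log2 difference was 0.11 (95% interval -0.25 to 0.47, adjusted p = 0.582). Whether signals in this range differ from no transcript was not tested, so the sizes of the falls of *Tim17a1* and of *tomboy40* in *Nxt1* testes are not ranked against each other.

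*Tim17a2* does not share this pattern, and its label as a testis paralog has no support in the control signals, which were 31.8, 28.6 and 30.3, under the lower quartile of these arrays. It read 27.3, 32.6 and 27.2 in *Nxt1* testes, on both sides of the control arrays, with a log2 difference of -0.06 (95% interval -0.31 to 0.19, adjusted p = 0.661). That holds on the deposited scale. *Tim17a2* passed as lower there with ribosomal centring (-1.19, limma, adjusted p = 9.23e-06) and with *CG3927* centring (-0.84, adjusted p = 0.000134). In *aly* testes it read 64.7, 52.2 and 53.0, higher than on every array of the other groups by 0.90 against control (standard error 0.11, adjusted p = 4.06e-05), a direction that ribosomal centring turned to -0.32 and *CG3927* centring to -0.24.

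*Tim17b*, the general form of both, read 5199, 5538 and 5697 in *Nxt1*, 7027, 7827 and 7128 in *aly* and 3990, 4096 and 4243 in control testes. It is the only general form with its highest signal in *aly* testes, by a log2 difference of -0.42 between *Nxt1* and *aly* testes (standard error 0.08, adjusted p = 0.00115), which was -0.06 (adjusted p = 0.55) with *CG3927* centring. Against control it was higher by 0.41 in *Nxt1* (adjusted p = 0.000923) and by 0.83 in *aly* testes (adjusted p = 4.27e-06), and both turned under centring, to -0.71 in *Nxt1* and -0.39 in *aly* testes with ribosomal and with *CG3927* centring to -0.36 in *Nxt1* and -0.30 in *aly* testes.

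*ttm2*, a relative of the inner membrane receptor, had signals of 1126, 959 and 931 in *Nxt1*, 165, 157 and 112 in *aly* and 12353, 12446 and 11664 in control testes. It kept the highest signal of the 5 fallen paralogs relative to its own control, with a change of -3.60 on the log2 scale in *Nxt1* testes, or 12.1 fold (standard error 0.14, adjusted p = 1.03e-08). In *aly* testes it fell by 6.41 (standard error 0.14, adjusted p = 1.25e-10), so that *Nxt1* testes lay 2.81 above *aly* testes (standard error 0.14, adjusted p = 1.32e-07).

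*ttm3*, the other relative of this receptor, had signals of 226, 204 and 176 in *Nxt1*, 42.0, 72.3 and 34.0 in *aly* and 4584, 4872 and 4481 in control testes. Its groups were in the same order as those of *ttm2*, with *aly* lowest and no overlap, although the *aly* arrays spread more and reach down to the lower quartile. It fell, with a log2 difference of -4.53 in *Nxt1* (standard error 0.23, adjusted p = 5.87e-08) and -6.63 in *aly* testes (standard error 0.23, adjusted p = 2.36e-09), and *Nxt1* lay above *aly* by 2.10 (standard error 0.23, adjusted p = 3.82e-05).

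*ttm50*, the general receptor, read 2959, 2714 and 2831 in *Nxt1*, 1742, 1686 and 1654 in *aly* and 956, 971 and 1001 in control testes. It rose the most of the general forms in *Nxt1* testes, by 1.54 on the log2 scale (standard error 0.07, adjusted p = 2.40e-08), and was the only one that still passed as higher there with ribosomal centring. In *aly* testes it was higher by 0.80 as deposited (standard error 0.07, adjusted p = 2.85e-06), and lower by -0.42 with ribosomal and by -0.34 with *CG3927* centring.

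**Figure D2:**
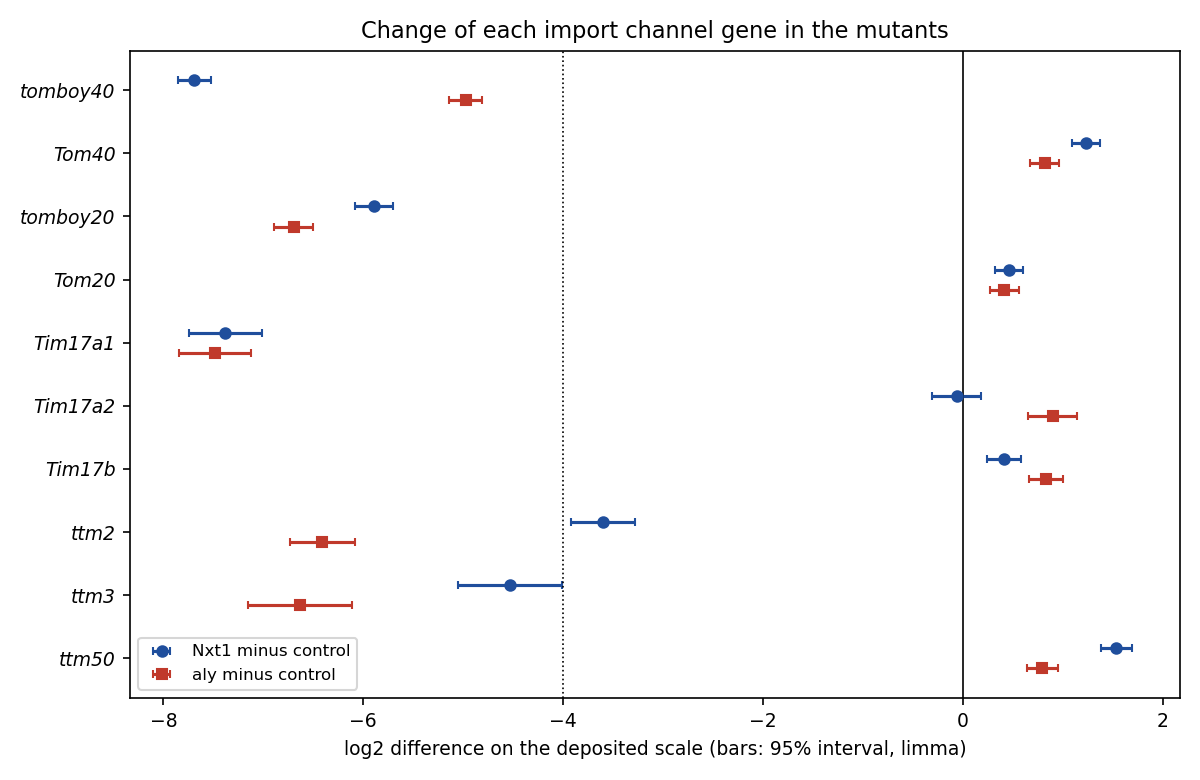
Log2 difference of each gene from control in *Nxt1* testes (circles) and *aly* testes (squares), with 95% intervals from limma, each paralog above its general form, a dotted line at 16 fold lower and a solid line at no difference. *tomboy40* lies farther left in *Nxt1*, *tomboy20*, *ttm2* and *ttm3* farther left in *aly* testes, and the general forms lie to the right by 0.41 to 1.54 on the deposited scale, which centring shifts left by 0.77 to 1.22 and so past the line for all 4 in *aly* and for *Tom20* and *Tim17b* in *Nxt1* testes.

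Compared directly, 5 of the 10 genes were higher in *Nxt1* than in *aly* testes, *tomboy20*, *ttm2*, *ttm3*, *Tom40* and *ttm50*, against 20.6% of all probe sets. Lower in *Nxt1* were 3, *tomboy40*, *Tim17a2* and *Tim17b*, against 38.5% of all probe sets, which is near the background. The arrays of the mutants did not overlap for 9 of the 10, against 64.3%. *CG3927* centring subtracts -0.36 from every log2 difference of this comparison, and 37.1% of all probe sets were then higher in *Nxt1* testes. *Tom20* (0.41, limma, adjusted p = 0.00134) and *Tim17a1* (0.47, adjusted p = 0.0313) were then also among them. *Tim17a1* reads at or under the lower quartile in both mutants, so no conclusion is drawn from its call. *Tim17b* no longer passed with this centring (-0.06, adjusted p = 0.55).

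A paralog and its general form are read on the same array, so a factor applied to a whole array cancels in their ratio. A shift that depends on signal level, as can arise when RMA equalises arrays, would not cancel. Against control, the log2 ratio of *tomboy40* to *Tom40* changed by -8.92 in *Nxt1* and -5.79 in *aly* testes, that of *tomboy20* to *Tom20* by -6.35 in *Nxt1* and -7.11 in *aly* testes, and that of *Tim17a1* to *Tim17b* by -7.79 in *Nxt1* and -8.32 in *aly* testes. For *ttm2* and *ttm50* the change was -5.14 in *Nxt1* and -7.21 in *aly* testes, and for *ttm3* and *ttm50* it was -6.07 in *Nxt1* and -7.42 in *aly* testes. Standard errors were between 0.04 and 0.33, and in each of these the 3 mutant arrays lay below all 3 control arrays. Between *Nxt1* and *aly* testes the ratio changed by -3.13 for *tomboy40*, 0.76 for *tomboy20*, 0.53 for *Tim17a1*, 2.07 for *ttm2* and 1.36 for *ttm3*, with no overlap. For *Tim17a1* both mutants read at or under the lower quartile, and its own difference of 0.11 did not pass, so the value of 0.53 comes mostly from the difference of -0.42 in *Tim17b*. The ratio of *Tim17a2* to *Tim17b* changed less, by -0.48 in *Nxt1* against control testes and 0.07 in *aly* against control testes, where the arrays overlapped, and -0.54 between the mutants. Over 6 pairs and 3 comparisons, the exact two-sided permutation p was 0.1 in 17 of 18 tests, the smallest that 3 arrays against 3 allow, and 0.106 after adjustment over the 18. It was 0.8 for *Tim17a2* and *Tim17b* in *aly* against control testes, so no ratio could pass the threshold by this test.

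**Figure D3:**
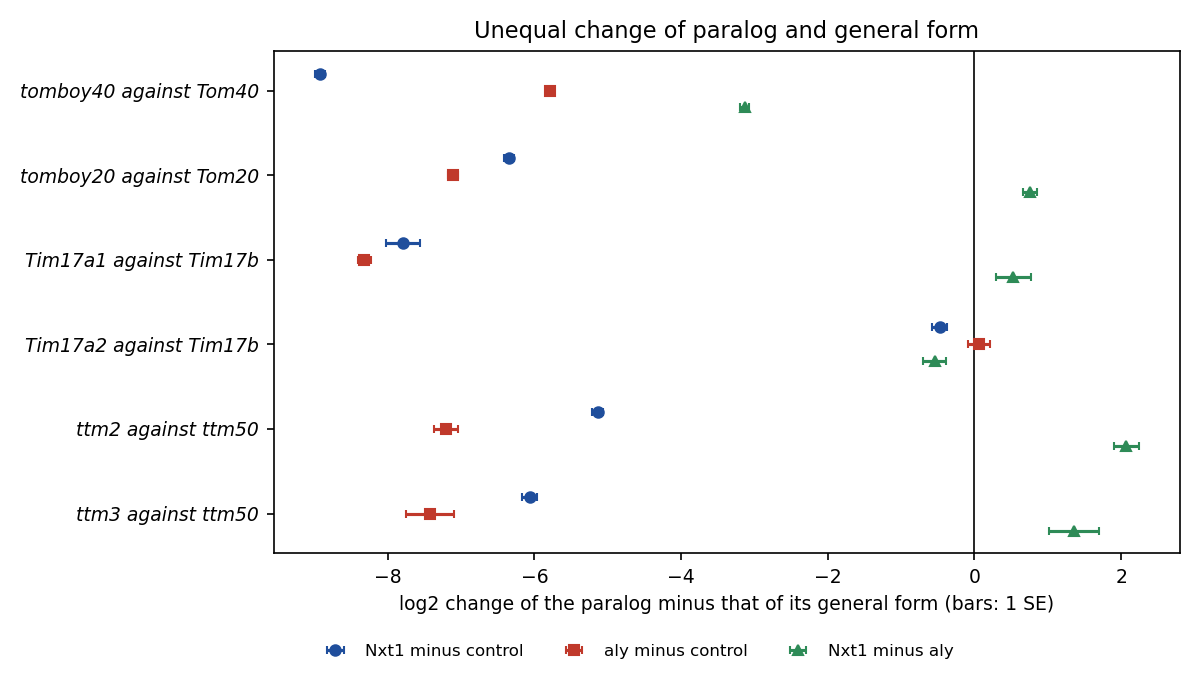
Log2 change of a paralog minus that of its general form, for *Nxt1* minus control (circles), *aly* minus control (squares) and *Nxt1* minus *aly* (triangles), with bars of 1 standard error over 3 arrays per group. The 5 fallen paralogs lie between -8.92 and -5.14 against control in the mutants, *Tim17a2* lies within 0.54 of no unequal change, and only *tomboy40* of the other 5 has its triangle left of 0.

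The array reads further genes with the name Tim17. *Tim17b2* had signals of 1615, 1482 and 1207 in *Nxt1*, 230, 296 and 277 in *aly* and 10228, 10233 and 10444 in control testes. It fell, with log2 differences of -2.85 in *Nxt1* (standard error 0.12, adjusted p = 1.93e-08) and -5.27 in *aly* testes (standard error 0.12, adjusted p = 1.79e-10), and its other probe set gave -2.53 in *Nxt1* and -5.57 in *aly* testes. Its groups thus stand in the order of those of *ttm2*, although its name groups it with the general form. *Tim17b1* had signals of 7087, 6782 and 6537 in *Nxt1*, 475, 595 and 549 in *aly* and 4487, 4306 and 4982 in control testes. It fell by 3.09 in *aly* testes (standard error 0.10, adjusted p = 1.34e-09), while in *Nxt1* testes it was higher by 0.57 (standard error 0.10, adjusted p = 0.000648), a direction that turned to -0.56 with ribosomal and to -0.21 (adjusted p = 0.0707) with *CG3927* centring. The difference between the mutants, 3.66 higher in *Nxt1* than in *aly* testes (standard error 0.10, adjusted p = 1.83e-09), was the largest of any gene of the import list described next.

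**Figure D4:**
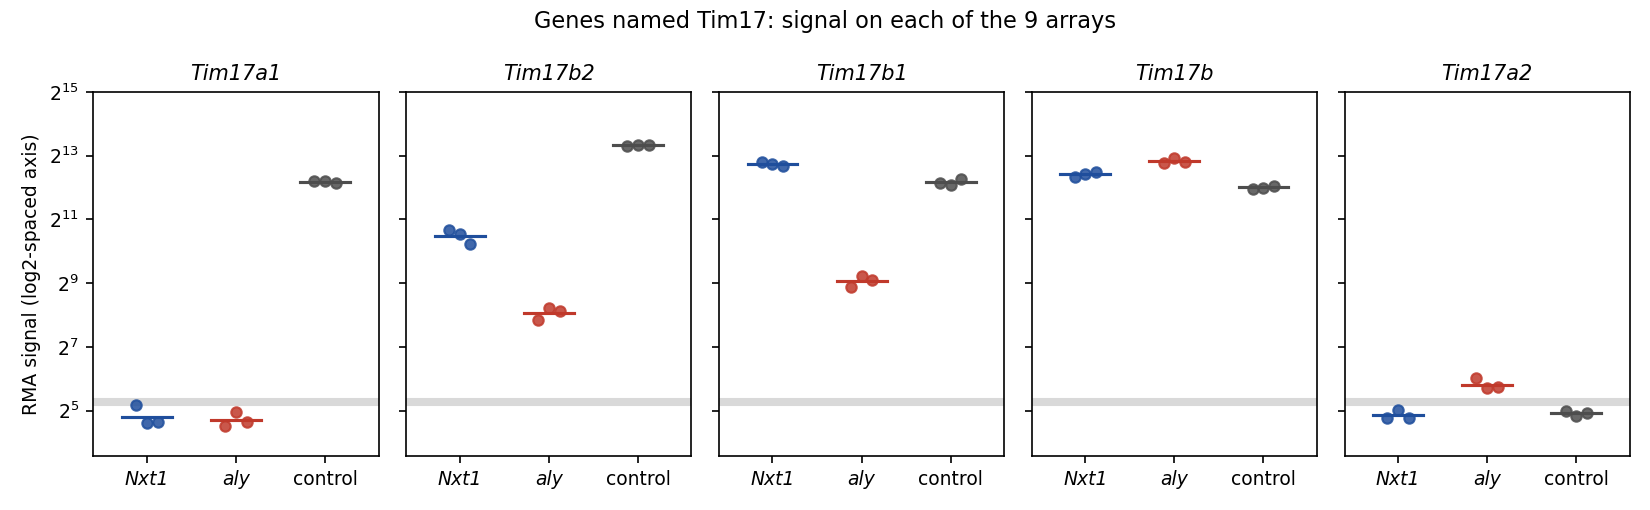
RMA signal of the 5 genes named Tim17 on a log2-spaced axis, with *Nxt1*, *aly* and control arrays from left to right, points for single arrays, bars for the mean of the 3 log2 values and a grey band for the arrays' lower quartiles. *Tim17a1* is low in both mutants, *Tim17b2* and *Tim17b1* are lowest in *aly* testes, *Tim17b* is highest there on the deposited scale but lower than control after centring, and *Tim17a2* stays near the grey band.

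Of 25 other genes of mitochondrial protein import listed from background knowledge, with earlier results of these data known, 23 had a probe set of a single symbol. In *Nxt1* testes 9 were lower and 9 higher than in control, with a median log2 difference of -0.06, and in *aly* testes 13 were lower and 9 higher, with a median of -0.47. In *Nxt1* against *aly* testes 8 were lower and 9 higher, with a median of -0.07. The shares over all probe sets were 24.2% lower and 34.1% higher in *Nxt1* against control, 20.0% lower and 44.0% higher in *aly* against control, and 38.5% lower and 20.6% higher in *Nxt1* against *aly* testes, so that 9 of 23 higher is near the background against control in both mutants. None of the 23 was 16 fold lower in *Nxt1* testes, against 2.59% of all probe sets. In *aly* testes 1 was, *Tim17b2*, against 5.70%, so both counts are near the background. Centring on ribosomal protein genes left no higher call in *Nxt1* or *aly* testes against control, where 11.2% and 13.0% of all probe sets were then higher. *Tim13*, a small chaperone of the space between the membranes, read 4223 ± 205 in *Nxt1*, 884 ± 144 in *aly* and 9646 ± 49.5 in control testes (SD, n = 3 each), and fell, with log2 differences of -1.19 in *Nxt1* (adjusted p = 7.75e-06) and -3.46 in *aly* testes (adjusted p = 1.70e-09). *Tim8*, which acts beside Tim13, read 1561 ± 45.5 in *Nxt1*, 3363 ± 34.5 in *aly* and 5074 ± 59.6 in control testes (SD, n = 3 each). It was lower in *Nxt1* than in *aly* testes, by a log2 difference of -1.11 (adjusted p = 3.60e-07), opposite to *Tim13*, which stood 2.27 higher in *Nxt1* testes (adjusted p = 1.26e-07).

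*Alr*, a sulfhydryl oxidase of the same space, read 4659 ± 94.9 in *Nxt1*, 1644 ± 68.1 in *aly* and 4769 ± 166 in control testes (SD, n = 3 each). It fell by 1.54 in *aly* testes (adjusted p = 1.64e-08), against -0.03 in *Nxt1* testes (95% interval -0.19 to 0.12, adjusted p = 0.716) as deposited and -1.16 there with ribosomal centring. *mge*, the Tom22 receptor of the outer membrane, fell in both, with log2 differences of -0.72 in *Nxt1* (adjusted p = 1.06e-05) and -1.09 in *aly* testes (adjusted p = 3.25e-07). *CG11779* fell too, with -1.95 in *Nxt1* (adjusted p = 2.89e-07) and -1.61 in *aly* testes (adjusted p = 1.01e-06), and *CG7394*, listed as TIM14 in the reference gene table, was higher by 0.40 in *Nxt1* (adjusted p = 0.000791) and by 1.05 in *aly* testes (adjusted p = 4.12e-07), where both centrings turned it in both mutants.

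**Figure D5:**
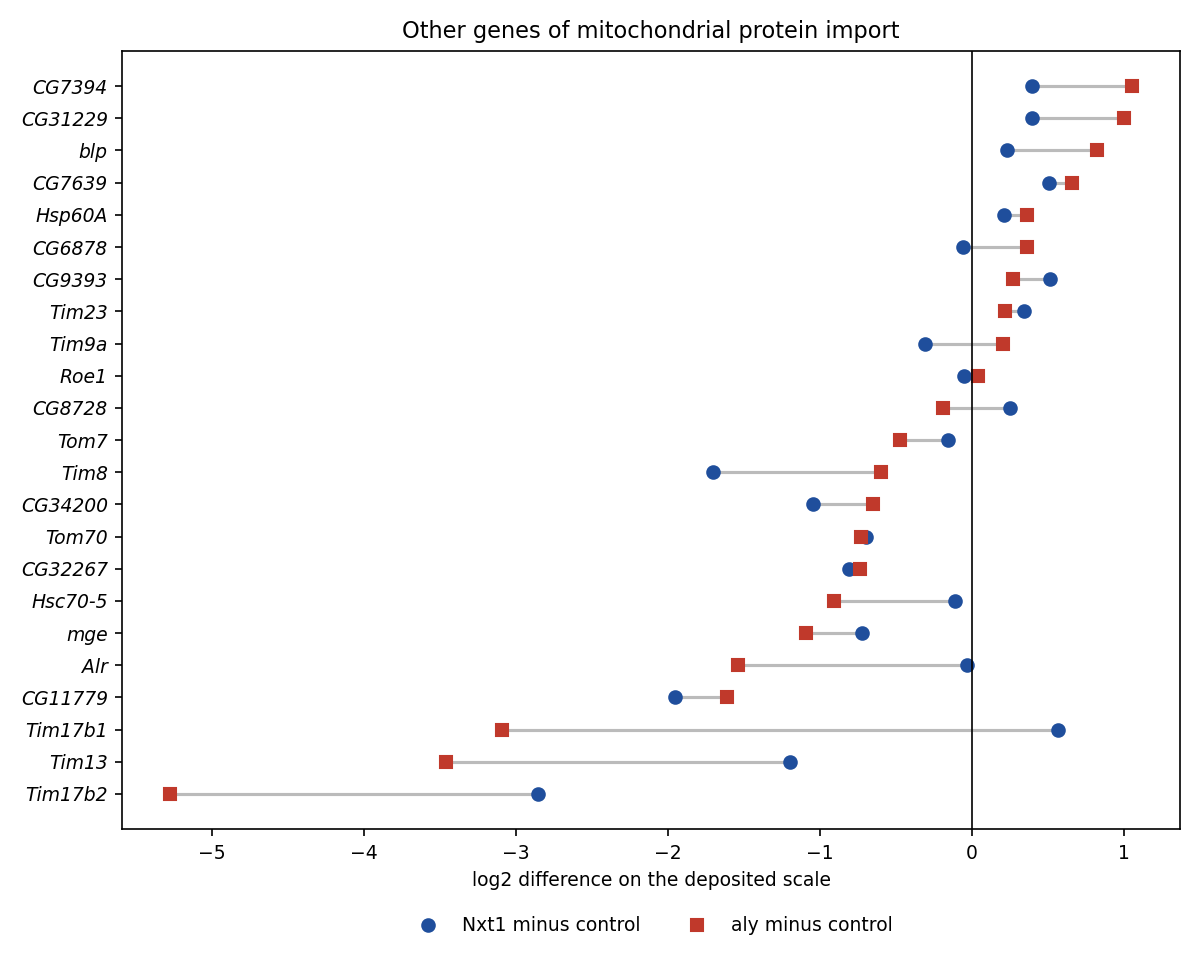
Log2 difference from control of the 23 listed genes of mitochondrial import in *Nxt1* testes (circles) and *aly* testes (squares) on the deposited scale, joined by a grey line for each gene. *Tim17b2*, *Tim13* and *Tim17b1* lie farthest left in *aly* testes, at -5.27, -3.46 and -3.09, and most others lie within 1 of no change. Ribosomal centring shifts all *Nxt1* values left by 1.13 and all *aly* values by 1.22, which leaves none higher by the test.

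The genes whose pattern over the 9 arrays was most like that of each paralog were found by Euclidean distance between log2 values, each gene centred on its own control mean. *tomboy20* lay closest to *CG42850* (0.33), *CG17944* (0.37) and *CG32236* (0.46), and *ttm2* to *CG5539* (0.31), *betaTub65B* (0.39) and *Tengl4* (0.40). *ttm3* lay closest to *t-Grip91* (0.55), *Tektin-A* (0.77) and *CG2336* (0.79), *Tim17a1* to *CG11634* and *CG16741* (0.84 each) and *CG3942* (1.09), and *Tim17a2* to *CG5418* (0.35), *CG7878* (0.35) and *CG4022* (0.36). *tomboy40* had no gene as near as these, since its nearest were *CG1724* (1.94), *CG43068* (2.08) and *CG31275* (2.12). Their log2 differences between *Nxt1* and *aly* testes were -1.58, -1.18 and -1.04, against -2.72 for *tomboy40*.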

How the data were processed

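The authors deposited signal intensities on a linear scale, made with GCOS and RMA (versions not given in the sources used here), which corrects background, equalises the arrays and summarises each probe set. Here 183 control probe sets of 18952 were left out and log2 was taken with nothing added. limma 3.58.1 (lmFit, eBayes) in R 4.3.3 was fitted to 18769 probe sets on all 9 arrays with 1 mean per genotype, with Benjamini-Hochberg adjustment over all, and a probe set passed at 0.05. Ratios of paralog to general form were tested by exact permutation (scipy 1.17.1). Calls were checked on simulated data. No array column was left unmapped.

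The members and lists were chosen with earlier results of these data known. The genes named are the members, the 8 genes of the import list with the largest absolute difference, the 3 nearest patterns of each paralog, *Nxt1* and *aly*. Of the import list, *Tim9b* and *Tim10* had no probe set of a single symbol. The design's list also named genes that the reference table did not pair with an import gene, which were left out.

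The alternatives were both centrings, a filter on dim probe sets (log2 of at least 7 on 3 arrays, 10116 left), eBayes with trend and robust, a replicate block, mean of probe sets, means on the linear scale, other general forms for *Tim17*, and leaving out each array. Single import genes under centrings or without an array were added after seeing the data. Gene names and neighbours came from the reference table of Release 6. No sequences were used here.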

Additional observations from a re-analysis of the deposited data

How the results depend on the processing

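Centring moved counts and turned small differences. With ribosomal and with *CG3927* centring, 8 and 8 of the 10 genes were lower and 1 and 2 higher in *Nxt1* testes against control, and 10 and 9 were lower and 0 and 0 higher in *aly* than in control testes. Under the same centrings 77.7% and 69.1% of all probe sets were lower in *Nxt1* and 76.0% and 74.1% in *aly* testes against control, so that 8 of 10 is near the background. The shares higher were 11.2% and 16.8% in *Nxt1* and 13.0% and 14.3% in *aly* testes, so that 1 and 2 of 10 are near the background too. Of the import list, 23 and 22 were lower and 0 and 0 higher in *Nxt1*, and 22 and 21 lower and 0 and 0 higher in *aly* against control testes. Between *Nxt1* and *aly* testes *CG3927* centring left 4 of the list lower, against 8 as deposited. Of all probe sets 13.4% were lower there with this centring, against 38.5% as deposited. Turned values with ribosomal and *CG3927* centring were, in *Nxt1* against control testes, -0.67 and -0.31 for *Tom20*, -0.71 and -0.36 for *Tim17b*, -0.56 and -0.21 for *Tim17b1* and -0.73 and -0.37 for *CG7394*. In *aly* against control testes they were -0.32 and -0.24 for *Tim17a2*, -0.40 and -0.32 for *Tom40*, -0.80 and -0.72 for *Tom20*, -0.39 and -0.30 for *Tim17b*, -0.42 and -0.34 for *ttm50* and -0.17 and -0.083 for *CG7394*. *CG11779* turned to 0.022 between *Nxt1* and *aly* testes with *CG3927* centring. The centrings subtract 1 amount from all genes by construction.

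With *Tim17b1* or *Tim17b2* as the general form, the ratio of *Tim17a1* between *Nxt1* and *aly* testes turned to -3.55 and -2.31, and with *Tim17b2* that of *Tim17a2* between *Nxt1* and control testes turned to 2.79. Without 1 array, *Tim17a1* between *Nxt1* and *aly* testes ranged between -0.081 and 0.23, turned without *Nxt1* replicate 1, and the ratio of *Tim17a2* to *Tim17b* between *aly* and control testes ranged between -0.062 and 0.17, turned without *aly* replicate 1. Neither passed with all arrays. *CG11779*, lower in *Nxt1* than in *aly* testes with an adjusted p of 0.0383 by limma, did not pass without *aly* replicate 3 (0.112), control replicate 1 (0.0528) or any 1 of the *Nxt1* replicates (0.0903, 0.0618 and 0.0991).

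Replicate numbers did not pair the arrays (correlations of deviations between -0.23 and 0.35), and a replicate block kept every call of the 10 genes, with 5 lower in *Nxt1* and 5 in *aly* testes against control. The dim filter removed *Tim17a2* alone of the 10, and no call changed with the trend. Linear means were compared by sign alone, and no sign changed. The mean of probe sets cannot change the values of these 10 genes, since each has 1 probe set. Signals near the lower quartile bound what can be said of *Tim17a1*, *Tim17a2*, and *tomboy40* in *Nxt1* testes.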

Other observations

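Genes next to the paralogs on the chromosome were read by their place alone in the reference gene table, outside the rule for named genes. On one side of *tomboy20* lies *CG4073*, with signals of 52.9, 58.7 and 49.2 in *Nxt1*, 83.3, 69.2 and 77.0 in *aly* and 5799, 5786 and 5748 in control testes. It fell, with log2 differences of -6.76 in *Nxt1* (adjusted p = 4.22e-11) and -6.24 in *aly* testes (adjusted p = 2.09e-11), and unlike *tomboy20* it was lower in *Nxt1* than in *aly* testes, by a log2 difference of -0.51 (adjusted p = 0.00116). On its other side lies *TkR86C*, a tachykinin receptor gene, with signals of 1075, 1078 and 1005 in *Nxt1*, 49.0, 62.6 and 47.9 in *aly* and 44.5, 47.0 and 56.9 in control testes. It was higher in *Nxt1* than in control testes by 4.42 (adjusted p = 1.16e-09), against 0.10 (adjusted p = 0.501) in *aly* testes.

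*CG32845*, next to *ttm2*, fell, with log2 differences of -5.73 in *Nxt1* (adjusted p = 8.52e-11) and -5.77 in *aly* testes (adjusted p = 3.45e-11), where the mutants overlapped and *ttm2* was 2.81 higher in *Nxt1* than in *aly* testes. *bin3* and *Pld*, on the sides of *tomboy40*, had log2 differences of -0.41 (adjusted p = 0.00331) and 0.06 (adjusted p = 0.786) in *Nxt1* against control testes and of -0.42 (adjusted p = 0.00263) and -0.13 (adjusted p = 0.495) in *aly* against control testes. All values are on the deposited scale, from which ribosomal centring subtracts 1.13 in *Nxt1* and 1.22 in *aly* testes against control. Of the flanks of *Tim17a1*, *CG4115* was higher by 1.30 (adjusted p = 0.00857) in *Nxt1* testes and lower, by a log2 difference of -0.97 (adjusted p = 0.0317), in *aly* testes, and *GstD10* was higher by 1.42 (adjusted p = 1.39e-05) in *aly* testes, against 0.31 (adjusted p = 0.11) in *Nxt1* testes. Of those of *Tim17a2*, *Hph* was higher by 1.00 in *Nxt1* (adjusted p = 5.63e-07) and by 0.39 in *aly* testes (adjusted p = 0.000635), and *mtd* was higher by 0.85 in *Nxt1* testes (adjusted p = 0.000449), against -0.32 (adjusted p = 0.0681) in *aly* testes. The flanks of *ttm3* and *RhoGEF3*, on the other side of *ttm2*, had no probe set of a single symbol.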
